A study of Caenorhabditis elegans with 24 samples.

Results

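The heterochronic genes of Caenorhabditis elegans set which developmental program the epidermis and other tissues run at each larval stage. Here 10 of them were followed in whole L4 hermaphrodites: lin-14, lin-28, hbl-1, lin-46, lin-41, lin-29, mab-10, lin-42, blmp-1 and dre-1. They were chosen by name, and all 10 were found among the 43800 gene entries of the count table and passed the filter on low counts.

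As background, early genes hold the animal in early larval fates and are switched off in turn by microRNAs. The microRNA lin-4 acts on lin-14 and lin-28, and the let-7 family acts on hbl-1 and lin-41. Once LIN-41 falls, the zinc finger factor LIN-29 and its cofactor MAB-10 drive the larval-to-adult switch, in which seam cells of the epidermis stop dividing, fuse and secrete adult cuticle. lin-42, the relative of the clock gene Period, cycles with each molt, as do many cuticle and molting genes.

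Animals of 4 strains were compared, each starved or fed, with 3 libraries in each of the 8 groups and 24 in all. The strains were efk-1(ok3609), a mutant of eEF2 kinase, an enzyme that acts on translation elongation, zip-2(tm4248), a mutant of a bZIP transcription factor, cep-1(gk138), a mutant of the worm p53 homolog, and the wild type N2. All larvae were synchronized and grown on OP50 bacteria to mid-L4. Starved animals were then washed 5 times in M9 buffer and held for 8 h on plates without bacteria, whereas fed animals were frozen at mid-L4. Starved animals were therefore 8 h older, and the effects of food and age cannot be told apart. In whole animals, fewer cells of a type and less RNA per cell cannot be told apart either. The labels do not say that replicates came from separate cultures, so p-values measure the spread between these libraries, which may be technical.

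Libraries held 14622266 to 30266282 counts. In the efk1 libraries, efk-1 itself had log2 fold changes against N2 of -2.87 when starved and -2.07 when fed (edgeR adjusted p = 2.82e-08 and 5.75e-06). The gene-level counts did not show the other mutations: zip-2 was at 158 to 290 CPM (counts scaled to a common library size) in starved zip2 and 310 to 321 CPM in starved N2, and at 134 to 198 CPM in fed zip2 against 245 to 330 CPM in fed N2, which was not called in either food state. cep-1 was at 36.6 to 45.5 CPM in starved libraries labelled cep1 and 45.9 to 49.4 CPM in starved N2. The names cep1 and zip2 below therefore stand for libraries so labelled.

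Corrected for transcript length, the order of the 10 genes differed between starved and fed N2. In starved N2, lin-41 was highest at 22.9 ± 2.41 CPM per kb (SD, n = 3), followed by lin-28 at 12.9 ± 0.64, and neither range overlapped that of the next gene. In fed N2, lin-42 led at 28.5 ± 15.02 CPM per kb, above lin-41, dre-1 and lin-28, which lay between 8.16 and 10.2 CPM per kb on average. lin-41 and dre-1 overlapped in range there, as did dre-1 and lin-28. hbl-1 was lowest in both, at 0.530 ± 0.10 CPM per kb when starved and 0.445 ± 0.18 when fed. Among starved N2 libraries it overlapped with lin-46, which in turn overlapped with blmp-1.

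**Figure D1:**
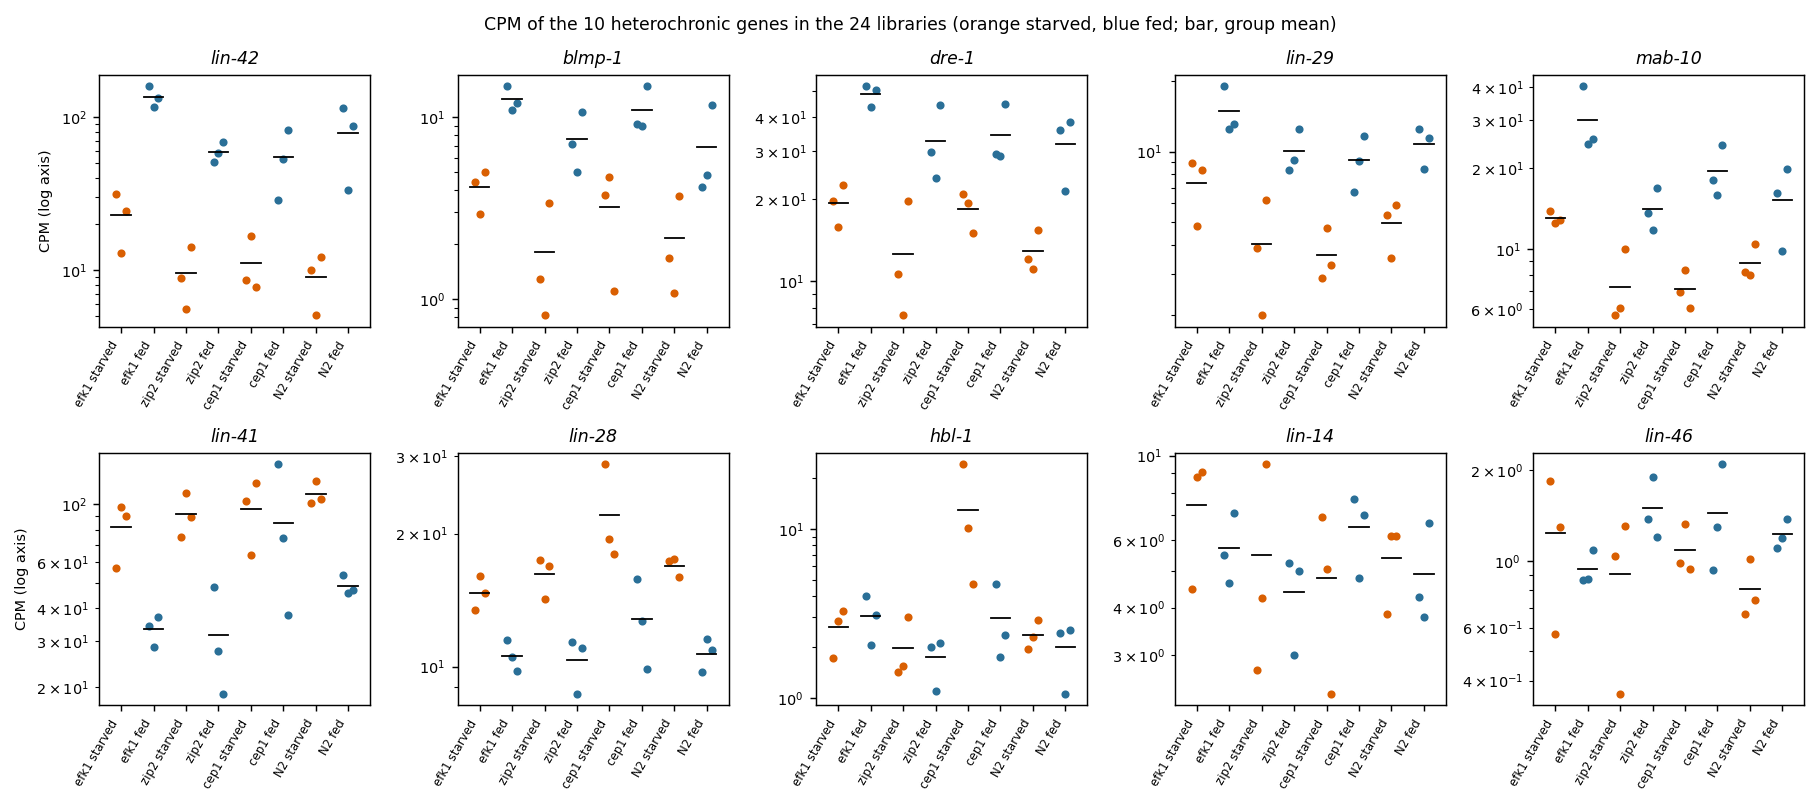
CPM of each of the 10 genes (log axis) in every library, by strain, with starved libraries in orange left of fed libraries in blue and a bar at each group mean. lin-42 was at 5.07 to 31.5 CPM in all 12 starved libraries and at 28.7 to 160 CPM in the 12 fed ones. hbl-1 reached 24.1 CPM in 1 library of starved cep1.

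After starvation, 5 genes were lower in all 4 strains: lin-42, blmp-1, dre-1, lin-29 and mab-10. Of all genes tested, 6.81% were called lower in all 4 strains. In fits of only the libraries compared, and with library totals in place of TMM factors, lin-42 was the 1 member called lower in all 4 (4.66% and 5.07% of all genes), and the other four lost their calls in cep1, N2 or efk1. No member was called higher in all 4, against 5.56% of all genes. By strain, 6 of 10 members were called in efk1 (25.4% of all genes were called in either direction), 7 of 10 in zip2 (34.4%), 7 of 10 in cep1 (28.4%) and 7 of 10 in N2 (32.3%). The count in efk1 was 3 without starved replicate 2. In N2 it was 2 without starved replicate 2, and 4 without fed replicate 1 or without fed replicate 3. A gene was called at an adjusted p under 0.05 in edgeR's quasi-likelihood test, adjusted over 15871 genes. The median log2 fold change of the members was -0.62 in efk1, -0.81 in zip2, -0.66 in cep1 and -0.70 in N2, whereas that of all genes lay between 0.00 and 0.06. Starved and fed ranges did not overlap for 7 of 10 members in efk1, 7 in zip2, 6 in cep1 and 7 in N2, against 51.8%, 49.2%, 36.6% and 51% of all genes.

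Of the early genes, lin-14, a nuclear factor that specifies first-stage fates, showed no called change. It had 3.84, 6.15 and 6.16 CPM in starved N2 libraries and 3.77, 4.27 and 6.64 CPM in fed ones. These ranges overlapped, and the log2 fold change was 0.14 (edgeR adjusted p = 0.82, SE 0.42). In the mutants it was 0.38 in efk1, 0.31 in zip2 and -0.43 in cep1, all with overlapping ranges.

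lin-28 encodes an RNA-binding protein that blocks maturation of let-7 and promotes second-stage fates. It had 15.97, 17.3 and 17.5 CPM in starved N2 libraries and 9.70, 10.9 and 11.5 CPM in fed N2 libraries. Every starved library was above every fed one in each of the 4 strains. The log2 fold change was 0.66 in N2 (edgeR adjusted p = 0.018, SE 0.20), 0.64 in zip2 (adjusted p = 0.020) and 0.79 in cep1 (adjusted p = 0.0065). In efk1 it was 0.47 (adjusted p = 0.095), which was not called. Leaving out starved cep1 replicate 1, which had the highest level at 28.7 CPM, ended the call in cep1 (0.53, adjusted p = 0.065). In N2 it ended without fed replicate 1 or starved replicate 2, and in zip2 without fed replicate 2 or starved replicate 1 (highest adjusted p = 0.072 in N2 and 0.10 in zip2). In fits of only the libraries compared it was lost in zip2 (adjusted p = 0.083) and cep1 (adjusted p = 0.11). With a replicate block in those fits it was lost in zip2, cep1 and N2. With library totals it was lost in zip2 and N2.

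hbl-1, a hunchback-like zinc finger factor that specifies second-stage divisions, was low in 7 of the 8 groups, between 1.06 and 4.75 CPM. In starved cep1 libraries it had 24.1, 10.2 and 4.71 CPM, and in fed cep1 libraries 4.75, 1.74 and 2.37 CPM. The lowest starved library was just under the highest fed one. The log2 fold change was 2.14 in cep1 (edgeR adjusted p = 0.0033, SE 0.50), and 1.32 (adjusted p = 0.051) without starved replicate 1, the highest library. It was -0.22 in efk1, 0.18 in zip2 and 0.27 in N2, none of which was called.

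lin-46, a gephyrin-like protein that acts against HBL-1, was the least counted member, with 4 to 53 counts per library, so its changes were poorly resolved. It had 0.67, 0.74 and 1.02 CPM in starved N2 and 1.11, 1.19 and 1.38 CPM in fed N2. Those ranges did not overlap, but the log2 fold change of -0.62 (edgeR adjusted p = 0.26, SE 0.42) was not called. The other strains overlapped, with log2 fold changes of 0.41 in efk1, -0.67 in zip2 and -0.40 in cep1.

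lin-41 encodes a TRIM-NHL RNA-binding protein that represses lin-29 and mab-10 in the soma and is also made in growing oocytes. It had 57.3, 90.2 and 97.4 CPM in starved efk1 libraries and 28.5, 34.2 and 37.1 CPM in fed ones. In N2 it had 101, 105 and 123 CPM when starved and 46.0, 47.0 and 53.5 CPM when fed. Starved and fed libraries were apart in efk1, zip2 and N2, where the log2 fold changes were 1.30, 1.54 and 1.17 (SE 0.37 each, edgeR adjusted p = 0.014, 0.0040 and 0.020). In N2 the call ended when fed replicate 2, fed replicate 3 or starved replicate 2 was left out, and in efk1 when fed replicate 2 or starved replicate 2 was left out (highest adjusted p = 0.067 and 0.062).

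In cep1, lin-41 had 64.2, 103 and 121 CPM in starved libraries and 37.7, 74.3 and 142 CPM in fed ones. The fed libraries spanned 3.77-fold and overlapped the starved ones, with a log2 fold change of 0.18 (edgeR adjusted p = 0.74, SE 0.36) that ranged from -0.18 to 0.76 when single libraries were left out. A set of 14 oocyte markers moved alongside lin-41. In starved animals their summed level was 4003 to 9348 CPM in efk1, 6191 to 13140 CPM in zip2, 6044 to 13220 CPM in cep1 and 6858 to 11580 CPM in N2. In fed animals it was 2059 to 2671 CPM in efk1, 2213 to 4222 CPM in zip2, 2724 to 8614 CPM in cep1 and 3565 to 4096 CPM in N2.

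After starvation, 13 of the 14 oocyte markers were called higher in efk1, 14 in zip2, 1 in cep1 and 10 in N2. Over all genes, 13.7% were called higher in starved efk1, 17.6% in zip2, 12.3% in cep1 and 15.9% in N2. Examples are perm-2, an eggshell gene, at log2 fold changes of 2.09 in efk1 and 1.41 in N2, and pos-1, an RNA-binding protein of oocytes and embryos, at 1.62 and 1.40. These counts rested on single libraries: without the second starved replicate they were 4 in efk1, 4 in zip2 and 3 in N2, and in cep1 they were 5 without fed replicate 1. No oocyte marker was at 0 in any library. In 7 of 8 groups the library with the most lin-41 also had the highest oocyte sum. The library with the least lin-41 had the lowest oocyte sum in 4 of 8 groups. For lin-28 the highest library was shared in 5 groups and the lowest in 3. The part of oocyte RNA in the lin-41 result was not tested.

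The late effectors lin-29 and mab-10 were lower after starvation in all 4 strains. lin-29 had 3.52, 5.37 and 5.90 CPM in starved N2 and 8.41, 11.4 and 12.5 CPM in fed N2. Starved and fed libraries did not overlap in any of the 4 strains. The log2 fold changes were -1.01 in efk1 (edgeR adjusted p = 0.035), -1.30 in zip2 (adjusted p = 0.0081), -1.34 in cep1 (adjusted p = 0.0070) and -1.12 in N2 (SE 0.35, adjusted p = 0.019). No single library ended the call in zip2 or cep1, but in cep1 it was just lost in the fit of only its libraries (adjusted p = 0.051) and with library totals (adjusted p = 0.050). In efk1 and N2 it was also lost with library totals (adjusted p = 0.12 and 0.11). In efk1 the call ended without fed replicate 1, fed replicate 3, starved replicate 2 or starved replicate 3 (highest adjusted p = 0.18), and in N2 without fed replicate 1 or starved replicate 2 (highest adjusted p = 0.093).

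mab-10, the NAB-type cofactor of LIN-29, had 12.5, 12.8 and 13.8 CPM in starved efk1 and 24.5, 25.5 and 40.3 CPM in fed efk1. In N2 it had 7.98, 8.19 and 10.5 CPM when starved and 9.80, 16.1 and 19.8 CPM when fed, so that the lowest fed library fell within the starved range. Log2 fold changes were -1.20 in efk1, -0.96 in zip2, -1.45 in cep1 and -0.77 in N2 (edgeR adjusted p = 0.0031, 0.013, 0.00060 and 0.037). In N2 the call ended when either of fed replicates 1 and 3 or starved replicates 1 and 2 was left out (highest adjusted p = 0.18), and in zip2 when fed replicate 3 or starved replicate 1 or 2 was (highest adjusted p = 0.064). In the fit of only its libraries the N2 call was lost too (adjusted p = 0.074), as it was with library totals. It held in efk1 and cep1 without any single library. Exons of lin-29 and mab-10 lie opposite those of hmg-12 and R166.2, and exons of lin-28 opposite F02E9.1. Whether strand was used in counting is not given in the sources used here, so part of their counts could come from those neighbours.

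The largest change among the members was that of lin-42. It had 31.5, 12.9 and 24.6 CPM in starved efk1 libraries and 160, 116 and 133 CPM in fed ones. In cep1 it had 8.69, 16.8 and 7.75 CPM when starved and 28.7, 53.6 and 83.2 CPM when fed. In N2 it had 10.03, 5.07 and 12.2 CPM when starved and 115, 33.6 and 87.3 CPM when fed. Starved and fed libraries were apart in all 4 strains.

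For lin-42, levels were 5.92-fold lower in starved efk1, 6.17-fold lower in starved zip2, 4.96-fold lower in starved cep1 and 8.57-fold lower in starved N2. The log2 fold changes were -2.56, -2.62, -2.31 and -3.10 (SE 0.47 to 0.49, edgeR adjusted p = 5.03e-04, 4.58e-04, 0.0010 and 9.70e-05). Leaving out any single library kept the call in every strain, with log2 fold changes between -3.46 and -1.89.

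blmp-1 encodes a zinc finger repressor related to mammalian Blimp-1, and dre-1 encodes an F-box protein that marks BLMP-1 for degradation. dre-1 had 11.1, 12.1 and 15.5 CPM in starved N2 and 21.5, 36.05 and 38.3 CPM in fed N2. Log2 fold changes of dre-1 were -1.33 in efk1, -1.37 in zip2, -0.89 in cep1 and -1.30 in N2 (edgeR adjusted p = 0.0034, 0.0026, 0.034 and 0.0036). Starved libraries lay below fed ones throughout. No single library decided the call in efk1, zip2 or N2, whereas in cep1 it ended without fed replicate 3 or starved replicate 3 (highest adjusted p = 0.18). The cep1 call was also lost in the fit of only the cep1 libraries (adjusted p = 0.094) and with library totals.

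blmp-1 had 1.08, 1.69 and 3.71 CPM in starved N2 and 4.12, 4.80 and 11.6 CPM in fed N2. Its log2 fold changes were -1.61 in efk1, -2.04 in zip2, -1.77 in cep1 and -1.62 in N2 (SE 0.53 to 0.56, edgeR adjusted p = 0.029, 0.0084, 0.016 and 0.026). No starved library overlapped a fed one within a strain. The calls outside zip2 were near the threshold. Single libraries ended the call in 5 of 6 fits in efk1, all but the one without fed replicate 2. In N2 it ended without fed replicate 3, starved replicate 1 or starved replicate 2, and in cep1 without fed or starved replicate 3 (highest adjusted p = 0.13 in efk1, 0.18 in N2 and 0.078 in cep1). With library totals it was lost in efk1, cep1 and N2 (adjusted p = 0.087, 0.077 and 0.089), and in the fit of only its libraries in cep1 (adjusted p = 0.054).

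**Figure D2:**
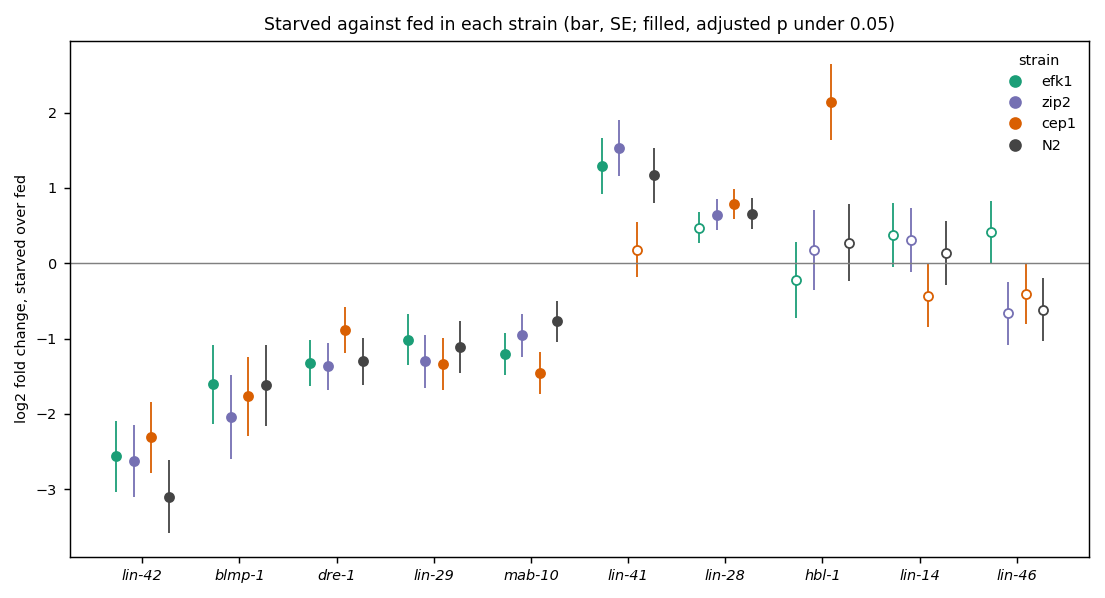
Log2 fold change of starved over fed animals for each gene in efk1, zip2, cep1 and N2, with bars for the SE and filled points for an adjusted p under 0.05. lin-42, blmp-1, dre-1, lin-29 and mab-10 are below 0 and filled in all 4 strains; lin-41 is filled in all but cep1, and hbl-1 in cep1 alone.

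The 5 lower genes varied together from library to library. Over the 24 libraries the correlation of log2 CPM among their 10 pairs was between 0.86 and 0.95, and after removing each group's mean it was between 0.64 and 0.89. These are descriptions over libraries that share groups, strains and scaling. Among the 10198 genes whose mean log2 CPM was 2 or more, the genes most like lin-42 were mlt-8, Y71G12B.25 and sqt-3 (Pearson r 0.99 over 24 libraries), the first a gene needed for molting and the last a cuticle collagen. Those most like lin-29 were grd-2, skpo-2 and F56D3.1 (r 0.97), and those most like mab-10 were myrf-1, F43B10.1 and eff-1 (r 0.92 to 0.95). For dre-1 they were let-268, nep-1 and W01C8.5 (r 0.96 to 0.97), and for blmp-1 lam-1, asd-2 and hum-4 (r 0.95 to 0.96). The genes most like lin-41 were Y67D8A.2, mex-3 and apx-1 (r 0.97), where mex-3 encodes an RNA-binding protein of oocytes and early embryos. lin-28 was nearest to nrde-3, ttll-5 and T05H10.4 (r 0.94 to 0.95), and hbl-1 to die-1, sex-1 and ten-1 (r 0.85 to 0.86).

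Genes that act in or around the molt moved with the 5 lower members. Of 14 molting genes, 10 were called lower in starved efk1, 10 in zip2, 6 in cep1 and 9 in N2, and none higher. Over all genes, 11.6% were called lower in starved efk1, 16.8% in zip2, 16.1% in cep1 and 16.4% in N2. In efk1 the count was 5 without fed replicate 1 and 6 without starved replicate 2, and in cep1 it was 3 without fed replicate 3. mlt-10, needed for molting, had log2 fold changes of -3.01 in efk1, -3.62 in zip2, -2.66 in cep1 and -3.24 in N2. In starved animals the summed level of the 14 genes was 263 to 512 CPM in efk1, 112 to 266 CPM in zip2, 182 to 418 CPM in cep1 and 130 to 237 CPM in N2. In fed animals it was 1516 to 2234 CPM in efk1, 749 to 1440 CPM in zip2, 324 to 1002 CPM in cep1 and 416 to 1103 CPM in N2. In all 8 groups, the library with the least lin-42 also had the lowest molting sum. For lin-29 this was so in 7 groups, for dre-1 in 6, and for mab-10 and blmp-1 in 5. The part of the molt in the results of the 5 genes was not tested.

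**Figure D3:**
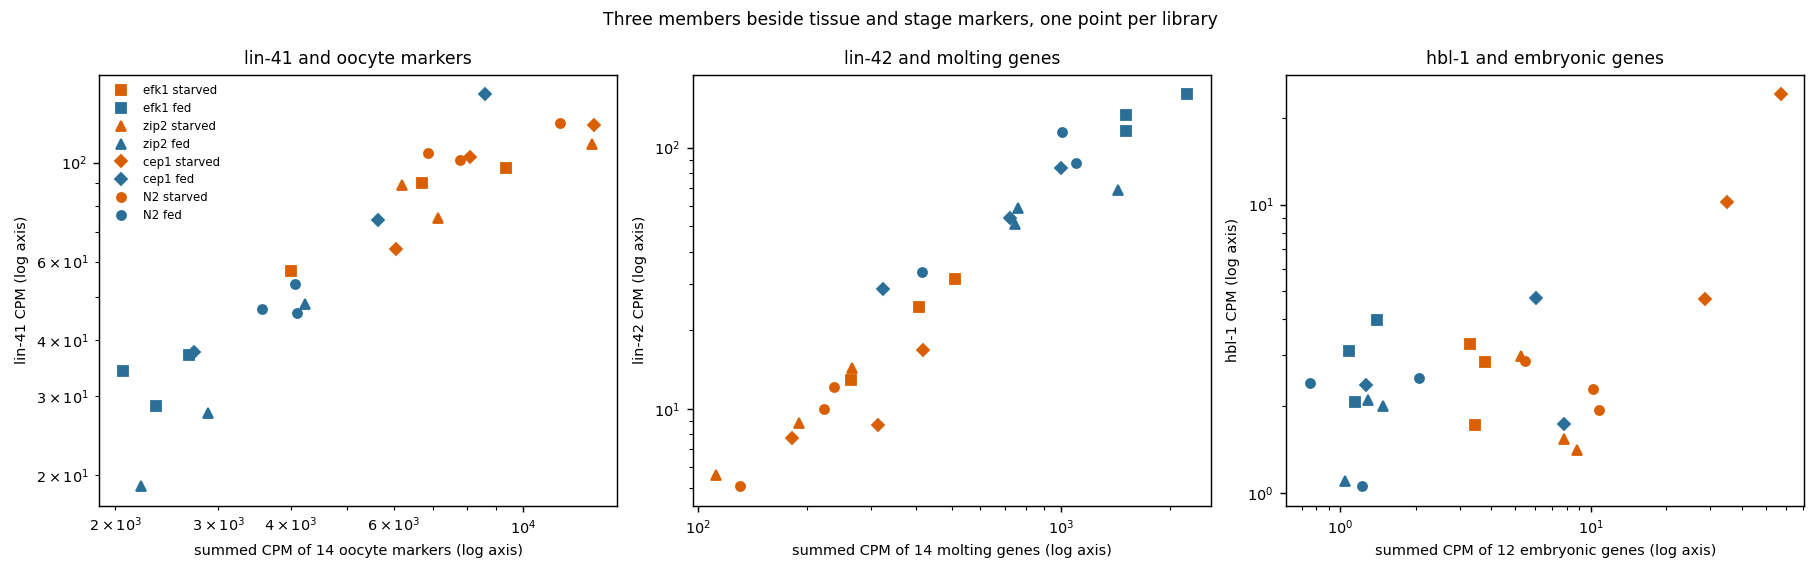
CPM of lin-41 against the summed CPM of 14 oocyte markers, of lin-42 against 14 molting genes and of hbl-1 against 12 embryonic genes, on log axes, with 1 point per library, shapes for strains and orange for starved. lin-42 lies along the molting sum from 5.07 to 160 CPM, lin-41 along the oocyte sum, and the 3 libraries of starved cep1 stand apart at embryonic sums of 28.6 to 57.3 CPM.

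Most other regulators of developmental timing were not called after starvation. Of 19 tested, 5 were called lower in efk1, 6 in zip2, 3 in cep1 and 4 in N2, and none was called higher in any of the 4. With 11.6%, 16.8%, 16.1% and 16.4% of all genes called lower in those strains, the share in cep1 was that of all genes and the share in N2 was near it. Leaving out single libraries left at least 2 called in efk1, 2 in zip2, 1 in cep1 and 2 in N2, the lowest of them without starved replicate 2 in efk1, zip2 and N2 and without fed replicate 3 in cep1. The lowest were daf-36, the Rieske oxygenase of dafachronic acid synthesis, at log2 fold changes of -2.56 in efk1, -2.63 in zip2, -3.003 in cep1 and -2.38 in N2, and bed-3, a zinc finger gene of molting and vulval divisions, at -2.01, -2.36, -1.89 and -2.28. myrf-1, a membrane-bound factor of larval development, was at -1.68 in efk1, -1.75 in zip2, -1.30 in cep1 and -1.45 in N2. The steroid receptor daf-12, which links hormone to stage, was not called in any strain (-0.73 to 0.23).

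Of 6 microRNA genes of the pathway, only let-7 had enough counts to test. These reads come from polyadenylated or longer RNA and do not measure the mature microRNA. let-7 was at 0.052, 0.28 and 0.70 CPM in starved efk1 and 2.60, 3.21 and 3.56 CPM in fed efk1. In N2 it was at 0.00, 0.12 and 0.15 CPM when starved and 0.36, 1.31 and 1.38 CPM when fed. Starved libraries were below fed ones in both strains. The log2 fold change was -3.12 in efk1 (edgeR adjusted p = 0.0034), -4.68 in zip2 (adjusted p = 0.0017) and -3.21 in N2 (adjusted p = 0.0099). It was -1.44 in cep1, which was not called. Over all genes, 11.6% were called lower in efk1, 16.8% in zip2 and 16.4% in N2. Counts of let-7 were low, at 3, 0 and 4 in starved N2 and 26, 11 and 28 in fed N2. It passed the low-count filter mainly through fed libraries, where it was high, so its calls depend on that choice.

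Among 15 genes of microRNA processing and function, 2 were called higher in efk1, 2 in zip2, 0 in cep1 and 3 in N2, and 1 in each strain was called lower. These shares were near or below those of all genes called higher (13.7%, 17.6%, 12.3% and 15.9%), save in N2, where 3 of 15 was slightly above. Counts this small changed with single libraries; in N2, 2 genes in all were called without starved replicate 2 or without fed replicate 1. Those in N2 were the Argonaute gene alg-5 (log2 fold change 1.18), the uridylyltransferase gene pup-2 (1.05), whose product works with LIN-28 on let-7 precursors, and the TRIM-NHL gene nhl-2 (0.94). tsn-1, a nuclease found with the microRNA effector complex, was called lower in all 4 strains (-1.04 in efk1, -0.57 in zip2, -0.70 in cep1 and -0.85 in N2).

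Cuticle collagens with stage-linked expression were mostly lower in starved animals. Of 9, 7 were called lower in efk1, 8 in zip2, 8 in cep1 and 8 in N2, where 11.6%, 16.8%, 16.1% and 16.4% of all genes were called lower. Without starved replicate 2, 3 of the 9 were called in efk1. bli-2, an adult cuticle strut collagen made during L4, had log2 fold changes of -3.37 in efk1, -4.09 in zip2, -2.96 in cep1 and -3.79 in N2. In efk1, col-7 was not called, at 314, 274 and 482 CPM in starved and 117, 227 and 287 CPM in fed libraries. The exception in all 4 strains was col-19, an adult collagen gene activated by LIN-29. It had 2134, 4353 and 3109 CPM in starved efk1 and 463, 837 and 887 CPM in fed efk1, and 2893, 3658 and 2402 CPM in starved N2 against 1584, 2144 and 1507 CPM in fed N2. col-19 was called higher in efk1 (2.13) and zip2 (1.08), and was at 0.39 in cep1 and 0.77 in N2, not called. mab-3, a direct LIN-41 target in males, was at -1.94 in efk1, -1.17 in zip2, -1.27 in cep1 and -1.09 in N2, called only in efk1.

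The seam cells in which these genes act gave a mixed picture. Of 9 seam cell genes tested, 1 was called higher and 1 lower after starvation in efk1, 1 higher and 3 lower in zip2, 4 higher and 0 lower in cep1, and 1 higher and 1 lower in N2. In either direction 25.4%, 34.4%, 28.4% and 32.3% of all genes were called, so the counts in efk1 and N2 were no more than the background. Counts this small turned on single libraries: 0 or 1 was called in efk1 whichever library was left out, 0 to 4 in zip2 (fewest without fed replicate 3, starved replicate 1 or starved replicate 2), 1 or 2 in N2 (1 without fed replicate 1, fed replicate 3 or starved replicate 2), and 2 in cep1 without starved replicate 1. egl-18, a GATA factor that keeps seam fate, was called higher after starvation in all 4 strains (log2 fold change 0.83 to 1.22). eff-1, the fusogen of epidermal cells, was called lower in efk1 (-1.24), zip2 (-1.32) and N2 (-1.26), and was at -1.01 in cep1. Some calls were of genes with few counts. ceh-16, called higher in cep1, had 67, 33 and 11 counts in starved and 6, 10 and 8 in fed cep1 libraries, and passed the low-count filter mainly through the former. bro-1, called lower in zip2, had 1, 0 and 1 counts in starved and 3, 4 and 14 in fed zip2 libraries.

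Each mutant was next set against N2 within a food state. In fed efk1 animals 0 of 10 members were called, where 1.51% of all genes were called. mab-10 came closest. It had 40.3, 24.5 and 25.5 CPM in fed efk1 and 16.1, 9.80 and 19.8 CPM in fed N2, with no overlap, a log2 fold change of 0.98 (SE 0.27) and an edgeR adjusted p of 0.091. With DESeq2 its adjusted p was 0.026. It was the 1 member with an unadjusted p under 0.05. dre-1 and lin-42 were also higher in every fed efk1 library than in any fed N2 library, and lin-41 and lin-46 lower, none of them called. That made 5 of 10 members with ranges that did not overlap, against 25% of all genes (3974 of 15871). Members had a median log2 fold change of 0.54, against 0.01 over all genes.

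In starved efk1 animals the numbered replicates varied together with those of starved N2. The correlation of deviations from the group means was 0.39 to 0.75 in the 3 pairs, so the libraries were also compared as pairs. The labels do not say that equal numbers mark shared batches. The pairing was chosen from these correlations in the same data, so the paired calls depend on that choice. Without pairing, 0 of 10 members were called by edgeR (1.93% of all genes), 1 of them, lin-42, with an unadjusted p under 0.05, and 0 were called by DESeq2. In pairs, 6 of 10 were called (29.1% of all genes). lin-42, blmp-1, dre-1, lin-29 and mab-10 were higher in starved efk1 in each of the 3 pairs, and lin-41 was lower in each. Of the members not called, lin-14 was also higher in each pair (1.16, 1.43 and 1.47 times N2) and lin-28 lower in each (0.775, 0.913 and 0.919 times).

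lin-42 had 31.5, 12.9 and 24.6 CPM in starved efk1 and 10.03, 5.07 and 12.2 CPM in starved N2, in the same order of replicates. The levels in starved efk1 were thus 3.14, 2.55 and 2.02 times those in N2. The paired log2 fold change was 1.29 (edgeR adjusted p = 2.56e-05, SE 0.15), against 1.33 (SE 0.46, adjusted p = 0.17) without pairing. In pairs, blmp-1 was at 0.96 (adjusted p = 0.013), dre-1 at 0.55 (adjusted p = 0.0085), lin-29 at 0.53 (adjusted p = 0.046), mab-10 at 0.52 (adjusted p = 0.025) and lin-41 at -0.49 (adjusted p = 0.015). The paired fit had 2 residual degrees of freedom. When 1 pair was left out, 2 members were called without pair 1, 2 without pair 2 and 5 without pair 3, when 15.3%, 13.5% and 33.9% of all genes were. lin-42 and dre-1 were called each time, but these fits had still fewer residual degrees of freedom. For lin-42 the edgeR adjusted p was 2.80e-08 without pair 2, below that with all 3 pairs, so these p-values carry little weight.

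**Figure D4:**
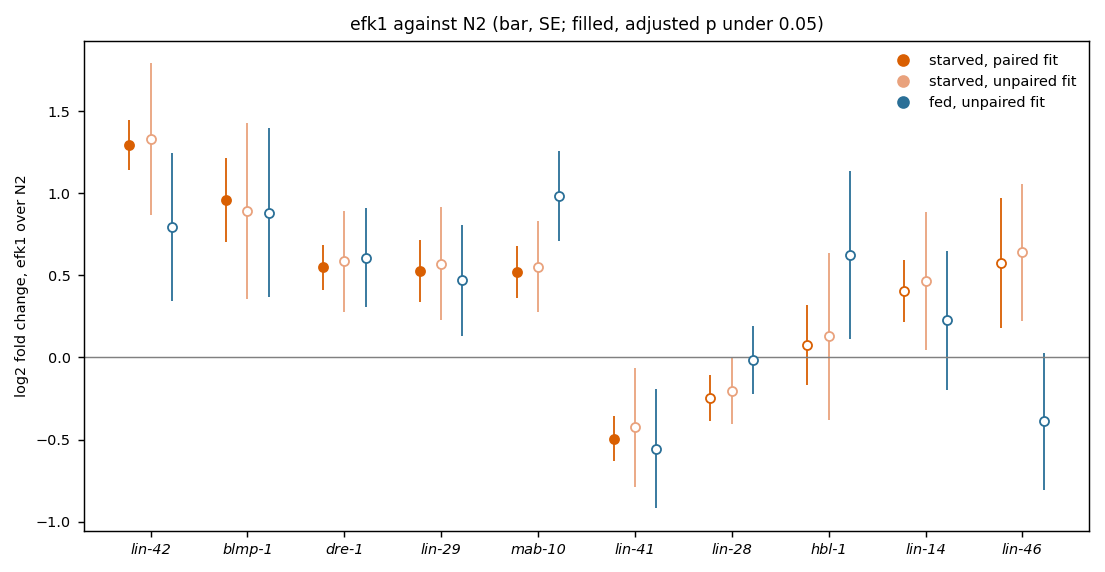
Log2 fold change of efk1 over N2 for each gene in starved animals, paired and unpaired, and in fed animals, with bars for the SE and filled points for an adjusted p under 0.05. Paired and unpaired values are close, from 1.29 and 1.33 for lin-42 to -0.49 and -0.42 for lin-41, and 6 points are filled, all in the paired fit.

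The sum of the molting genes stood apart between efk1 and N2 in the same direction. The summed level of the 14 molting genes was 263 to 512 CPM in starved efk1, against 130 to 237 CPM in starved N2, and 1516 to 2234 CPM in fed efk1, against 416 to 1103 CPM in fed N2. The groups did not overlap in either food state. In fed animals, however, 0 of the 14 genes were called (1.51% of all genes). In fed animals the oocyte sum ran the other way, at 2059 to 2671 CPM in efk1 and 3565 to 4096 CPM in N2, with 0 of 14 oocyte markers called. In starved animals the oocyte sums overlapped, at 4003 to 9348 CPM in efk1 and 6858 to 11580 CPM in N2. The 9 stage-linked collagens were mixed in fed animals, with a median log2 fold change of 0.71 and 0 called. Of these, col-19 was lower in fed efk1 (463 to 887 CPM) than in fed N2 (1507 to 2144 CPM). So was col-7, at 117 to 287 CPM against 429 to 664 CPM. In pairs, 11 of the 14 molting genes were called between starved efk1 and N2 (29.1% of all genes), and 0 without pairing. With a pair left out it was 10 without pair 1 (15.3% of all genes), 10 without pair 2 (13.5%) and 12 without pair 3 (33.9%). The part of stage in the efk1 results was not tested.

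The starvation responses of efk1 and N2 were also compared directly. The difference in response was not called for any of the 10 members (0.246% of all genes were called) and ranged from -0.50 for hbl-1 to 1.03 for lin-46 on the log2 scale. None had an unadjusted p under 0.05.

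In zip2 against N2, 0 members were called in starved animals (1.3% of all genes) and 0 in fed animals (1.13%), and none had an unadjusted p under 0.05. All ranges overlapped those of N2, whereas 6.18% of all genes in starved and 11.9% in fed animals had ranges that did not. Log2 fold changes were between -0.30 and 0.23 in starved animals and between -0.63 and 0.28 in fed ones. Starved zip2 and N2 replicates also ran in parallel (correlation 0.54 to 0.69), and in pairs 0 members were called (1.71% of all genes). The difference in starvation response ranged from -0.43 to 0.47 (0.0% of all genes were called), and no member had an unadjusted p under 0.05. DESeq2 also called 0 members in these 3 comparisons.

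In cep1 against N2, hbl-1 was the 1 member called in starved animals (7.71% of all genes). It had 24.1, 10.2 and 4.71 CPM in starved cep1 and 1.94, 2.30 and 2.87 CPM in starved N2. Every cep1 library lay above every N2 library, and the mean was 5.46-fold higher, with a log2 fold change of 2.45 (edgeR adjusted p = 0.0076, SE 0.51). Without starved cep1 replicate 1 it was 1.67 (adjusted p = 0.069). It was also not called when only these 6 libraries were fitted (2.43, adjusted p = 0.12).

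Genes of embryos and some of those of the larval epidermis stood high in the same libraries. A list of 12 embryonic genes was added after the values were seen. It summed to 28.6 to 57.3 CPM in starved cep1 and 1.27 to 7.78 CPM in fed cep1. In N2 the sum was 5.44 to 10.8 CPM when starved and 0.754 to 2.07 CPM when fed. In efk1 it was 3.28 to 3.78 CPM when starved and 1.085 to 1.40 CPM when fed, and in zip2 5.24 to 8.83 and 1.04 to 1.48 CPM. After starvation, 2 of 7 tested genes were called higher in efk1, 6 in zip2, 7 in cep1 and 6 in N2. Over all genes this was 13.7%, 17.6%, 12.3% and 15.9%. Some of the tested genes had few counts when fed, such as hch-1 (0 to 15) and ceh-51 (0 to 7). These passed the low-count filter through starved libraries, where they were high. The counts of called embryonic genes therefore cannot be weighed against the shares of all genes. In fed cep1 against fed N2, 2 of 7 were called higher (374 of 15871 genes). hch-1, the hatching protease gene, had 28.4, 21.8 and 10.2 CPM in starved cep1 and 2.15, 1.35 and 0.309 CPM in starved N2. It was at 0 in every fed N2 library. Of the 12 genes, 0 or 1 were at 0 in a starved cep1 library and 1 or 2 in a starved N2 library. In starved cep1 against starved N2, the 7 tested genes included 1 called higher, hch-1, at a log2 fold change of 4.03 (3.33% of all genes were called higher). hch-1 was not called when only these 6 libraries were fitted (adjusted p = 0.083), and the count was 0 to 2 when single libraries were left out, changing without starved cep1 replicate 1 or 3 or starved N2 replicate 2 or 3.

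The lists with epidermal genes did not move alike between starved cep1 and starved N2. Of 9 stage-linked collagens, 0 were called higher and 1 lower, col-7 (log2 fold change -2.16), where 694 of 15871 genes were called lower. The median of these collagens was -1.07. By contrast, 3 of 9 seam cell genes, 3 of 14 molting genes and 1 of 19 other timing regulators were called higher, and none lower. Over all genes, 3.33% were called higher. The genes called higher were the seam cell genes bro-1 (log2 fold change 3.30), ceh-16 (2.81) and elt-6 (1.18), the nuclear receptor gene nhr-25 (1.91) and the cuticle matrix genes fbn-1 (2.37), noah-1 (2.33) and noah-2 (1.96). Other molting genes lay below N2 without a call, among them mlt-7 (-0.80), nas-36 (-0.81) and nekl-2 (-0.32). When only these 6 libraries were fitted, 0 of all genes were called higher and 3 lower. The seam count was 0 without starved cep1 replicate 1 or without starved N2 replicate 3. bro-1 had only 20, 29 and 2 counts in starved cep1 and 1, 1 and 2 in starved N2. ceh-16 had 67, 33 and 11 counts against 6, 2 and 5. Both passed the low-count filter mainly through starved cep1, where they were high. The seam count therefore cannot be weighed against the share of all genes. The molting count was 0 or 1 when any library but starved cep1 replicate 3 was left out. nhr-25 had 8.18, 3.82 and 1.44 CPM in starved cep1 and 1.38, 0.879 and 1.30 CPM in starved N2, listed in the order of libraries used for hbl-1. The starved cep1 libraries ranked as they did for hbl-1, but the starved N2 libraries did not. The part of embryos or young larvae in the hbl-1 result was not tested.

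In fed animals, 0 members were called between cep1 and N2 (4.89% of all genes). lin-41 had 37.7, 74.3 and 142 CPM in fed cep1 and 46.0, 47.0 and 53.5 CPM in fed N2, with a log2 fold change of 0.80 (edgeR adjusted p = 0.18, SE 0.36), the 1 member with an unadjusted p under 0.05. Without fed cep1 replicate 3, the lowest library, it was 1.15 and was called (adjusted p = 0.032). DESeq2 called 0 members. The library with 142 CPM, replicate 1, had the highest oocyte sum among fed libraries, at 8614 CPM.

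The difference in starvation response between cep1 and N2 was not called for any member by edgeR (0.0% of all genes) or by DESeq2. For hbl-1 it was 1.87 on the log2 scale (edgeR adjusted p = 0.74, SE 0.71), with an unadjusted p under 0.05. For lin-41 it was -0.98 (SE 0.51, adjusted p = 0.90), and -0.36 without fed cep1 replicate 1. The starvation calls of hbl-1 in cep1 and of lin-41 in the other strains are therefore not shown to be particular to those strains.

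In the WBcel235 annotation of Ensembl, all 10 are protein-coding genes. lin-28 (WBGene00003014), lin-41 (WBGene00003026) and blmp-1 (WBGene00003847) are on chromosome I. lin-42 (WBGene00018572) spans 1233236 to 1252359 of chromosome II on the minus strand, with 7 transcripts of up to 10 exons. On the same chromosome are mab-10 (WBGene00003107) at 10528084 to 10534380 on the plus strand and lin-29 (WBGene00003015) at 11917642 to 11935343 on the minus strand. dre-1 (WBGene00001089) at 6533614 to 6546500 and lin-46 (WBGene00003031) at 12968855 to 12970730 are on chromosome V. hbl-1 (WBGene00001824) at 5822142 to 5827755 and lin-14 (WBGene00003003) at 11465560 to 11485871 are on chromosome X.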

How the data were processed

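Per the labels, RNA came from Trizol extracts of whole animals, and stranded mRNA libraries were sequenced in 75-base read pairs on an Illumina instrument. The submitters' processing notes name Trimmomatic 0.36, Salmon 0.9.1, edgeR and the build WBcel235, without their roles. The authors' deposited values were treated as estimated counts, since 9.05% of its nonzero values are fractional (tolerance 0.0001). Counts were rounded, and edgeR 4.0.16 in R 4.3.3 filtered low counts (minimum 10, total 15), scaled by TMM and fitted 8 group means to 24 libraries by robust quasi-likelihood, with 16 residual degrees of freedom (common biological coefficient of variation 29.0%). Benjamini-Hochberg adjustment ran over 15871 genes in each of 13 contrasts. CPM are counts scaled to a common library size after TMM, and CPM per kb divides them by the longest transcript. SDs and SEs cover these libraries only, as the labels do not say that replicates came from separate cultures. Reads carried no molecular identifiers.

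Groups and replicate numbers come from the sample titles. Numbers were taken to pair 2 groups where every pair's deviations from the group means, over genes, correlated above 0.1, which held for starved efk1 and starved zip2 against starved N2. Lists (11, of timing regulators, microRNA genes, microRNA machinery, collagens, seam cells, LIN-41 targets, molting, oocyte, sperm, yolk and the 10 members, plus the embryonic list added later) were matched by symbol, and 2 symbols, ntl-1 and trp-3, were not matched. Genes named were all members, the targeted genes, the called list genes of largest change and the 3 genes most correlated with each member called after starvation; others (daf-12, mab-3, col-19, eff-1) were chosen after their values were seen. Members and lists were chosen with earlier results of these data known. Alternatives were DESeq2 1.42.0, other scalings and filters, replicate blocks, fits of only the libraries compared and each library left out. The steps were tested on simulated data. Sequences are not analysed here.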

Additional observations from a re-analysis of the deposited data

How the results depend on the processing

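All 28 calls of members (27 for starvation, and hbl-1 in starved cep1 against N2) held with RLE size factors, DESeq2, no filter on low counts and a replicate block over all 24 libraries; the other alternatives kept direction but fewer calls: 21 in fits of only the libraries compared, 20 of those with a replicate block, 18 with library totals in place of TMM factors, and 20 of 20 without the cep1 libraries. Members called lower in all 4 strains numbered 5 under the first 4 of these and 1, lin-42, in fits of only the libraries compared, with or without the block, and with library totals. The fits with library totals and without cep1, and leaving out pairs, were chosen after the data were seen. After starvation in N2, 3 members were called with library totals and 2 to 7 when single libraries were left out. In efk1 3 to 5 were called without single libraries. In cep1, 3 were called in fits of only its libraries, with or without the replicate block, and 4 with library totals. For fed efk1 against N2, 1 member was called with DESeq2 and 1 with the replicate block over all libraries, mab-10 in both; for starved efk1 against N2, 6 in the replicate block of only these libraries, and 2, 2 and 5 when a pair was left out. For cep1 against N2, 0 to 1 was called in fed and 0 to 1 in starved animals when single libraries were left out, and 0 in starved animals in fits of only these libraries, with or without the block. The paired fits changed no other count of members by over 1.5 times. Outside starved efk1 and zip2 against N2, equal numbers showed no pairing (lowest correlation of each comparison -0.695 to -0.02).

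Small changes with no call changed sign when single libraries were left out: hbl-1 after starvation ranged from -0.047 to 0.48 in N2, -0.45 to 0.024 in efk1 and -0.25 to 0.39 in zip2, lin-14 from -0.022 to 0.42 in N2 and -0.36 to 0.64 in zip2, and lin-41 from -0.18 to 0.76 in cep1. Against fed N2, lin-28 in efk1 ranged from -0.082 to 0.04, and in cep1 dre-1 from -0.13 to 0.25, lin-46 from -0.13 to 0.47 and cep-1 from -0.044 to 0.67. Against starved N2, hbl-1 in efk1 ranged from -0.068 to 0.36 (-0.015 in pairs without pair 2), and in cep1 lin-14 ranged from -0.50 to 0.14, lin-41 from -0.40 to 0.068 and lin-42 from -0.12 to 0.55. With library totals, lin-28 was at 0.011 in fed efk1 against N2 and lin-14 at 0.095 in starved cep1 against N2. That scaling moved the median of all genes by up to 0.19 in a comparison of 2 groups, and over all genes called it gave 2204 higher and 1799 lower after starvation in cep1 (1956 and 2549 with TMM), 425 and 229 for fed cep1 against N2 (374 and 402) and 500 and 290 for starved cep1 against N2 (529 and 694). DESeq2 gave 303 higher and 219 lower for starved efk1 against N2 (110 and 196). Causes were not tested. With 3 libraries a group, 4 to 53 counts of lin-46 per library limited what could be detected.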

Other observations

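Yolk and sperm genes were read beside the timing genes. Among 6 yolk protein genes, vit-2, vit-5 and vit-6 were called higher after starvation in efk1 (log2 fold changes 3.23, 4.42 and 2.96), zip2 (2.32, 2.15 and 1.996) and N2 (1.93, 2.12 and 1.72). In cep1 they were at 1.16, 0.80 and 0.89 and were not called. The other three ran the other way or were not called. vit-1 was called lower in zip2 (-2.05), cep1 (-5.42) and N2 (-1.92), and was at 0.34 in efk1. vit-4 was called lower in cep1 (-4.95) and N2 (-1.90), and was at 0.43 in efk1 and -1.78 in zip2. vit-3 was called lower in cep1 (-3.59), and was at -0.94 in zip2, -1.35 in N2 and averaged 141 CPM in both starved and fed efk1. Of the 6, 3 were thus called higher and 0 lower in efk1, 3 and 1 in zip2, 0 and 3 in cep1, and 3 and 2 in N2, where 13.7% and 11.6%, 17.6% and 16.8%, 12.3% and 16.1%, and 15.9% and 16.4% of all genes were. These genes are close copies of each other, so the split of reads between them is uncertain. In N2, 0 to 5 were called when single libraries were left out, fewer without fed replicate 1 or 3 or starved replicate 1 or 2, and in zip2 2 to 4, fewer without starved replicate 2. Of 10 sperm genes tested, none was called higher in any strain, and 1 was called lower in efk1, 0 in zip2, 1 in cep1 and 2 in N2; spe-9, a sperm surface protein needed for fertilization, was at -0.79, -0.46, -1.10 and -0.76.

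lin-14 and hbl-1 were not called after starvation in N2, but their deviations from the group means rose and fell together over the 24 libraries (Pearson r 0.84, a description with no test). Most of the spread in lin-14 lay within groups, such as 2.75, 4.25 and 9.49 CPM in starved zip2.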
